A study of Mus musculus with 33 samples.

Results

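J-domain proteins, also called Hsp40 proteins, are the cochaperones that bring unfolded proteins to Hsp70 and switch on its ATPase. A set of 9 of their genes was followed through heat shock: the class A genes Dnaja1, Dnaja2 and Dnaja4, the class B genes Dnajb1, Dnajb2, Dnajb4, Dnajb5 and Dnajb6, and the class C gene Dnajc7. They were chosen by name out of 21627 protein-coding genes, but with earlier results of these data known. Their counts are therefore not those of a blind choice. Every peak whose summit lay inside one of the 9 genes or within 10 kb of it was taken, 57 of 45686 peaks in 15 lists. The peaks came from chromatin immunoprecipitation with sequencing (ChIP-seq) of mouse embryonic fibroblasts (MEFs) of 129Sv.BALB/c background. HSF1-/- MEFs, whose label names no change at Hsf2, gave 6 lists, 1 for each of 2 antibodies, CS (from Cell Signaling) and MM (given by the Morimoto laboratory), at each of 3 times: before heat shock (0 min), and after 12 min and 60 min of it. Wild type MEFs gave 6 lists of the same antibodies and times and 3 more made with an antibody against SRF. The other 18 of the 33 samples, among them nascent RNA libraries, were not analysed here. What CS and MM bind is not written in the labels. File headers call the experiment an Hsf1 ChIP-seq, and HSF1-/- cells give the background of both antibodies. The lists hold no measure of Hsf1 itself or of fibroblast genes, so neither label was tested, and no source used here says how many embryos or clones stood behind a line.

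As background, J-domain proteins share a J domain whose His-Pro-Asp motif is needed to stimulate Hsp70. Class A proteins also carry a Gly/Phe-rich region and a zinc-finger-like region, class B proteins have the Gly/Phe-rich region without the zinc-finger-like one, and class C proteins share only the J domain. HSF1 is the main transcription factor of the heat shock response, and on stress it forms trimers that bind heat shock elements, arrays of the unit nGAAn in alternating orientation. J-domain proteins and Hsp70 in turn hold HSF1 in check, so these genes lie in a feedback loop.

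A region was called shared where a CS peak and an MM peak of the same cells and time overlapped by at least 1 bp and both had their summit in the window of a gene. In HSF1-/- cells, 0, 0 and 1 of the 9 genes had a shared region at 0, 12 and 60 min of heat shock, beside 2.37%, 2.01% and 2.55% of all protein-coding genes. In wild type cells 1, 7 and 6 of the 9 did, beside 0.527%, 5.33% and 11.2% of all protein-coding genes. Dnaja1 was the gene found before heat shock. Dnaja4, Dnajb1, Dnajb2, Dnajb4, Dnajb5 and Dnajb6 joined it at 12 min, and of these 7 genes Dnajb6 alone had no shared region at 60 min. At 12 or 60 min, 11.8% of all protein-coding genes had one. Dnaja2 and Dnajc7 had no wild type peak of CS or MM at any time. There was 1 list for each genotype, time and antibody, so none of these differences has a replicate error or a test.

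The sequences under the peaks are shown first, because at 4 genes the summits lay close to a short element in them. A heat shock element of 3 units was searched on both strands as GAA, TTC and GAA, or TTC, GAA and TTC, with 2 bases of any kind (NN) between units, and its 9 fixed letters were scored. The windows searched were RefSeq promoter windows (GRCm38.p6, the same primary assembly as mm10) from 250 bases before to 50 bases after each annotated start, 32851 in all, and all 9 genes had at least 1. All 9 letters were found in 0.603% of the windows, 8 or more in 7.22%, and the form of 2 units, GAANNTTC or TTCNNGAA, which lies inside the longer ones, in 15.1%. Of the 9 genes, Dnajb6 held all 9 letters, and Dnaja1, Dnaja4 and Dnajb4 held 8. These are the best matches over the 1 to 3 windows of a gene, whereas the shares above are per window. The same 4 genes, and none of the other 5, held the form of 2 units. Each stretch below is printed along its gene, 5′ to 3′, with capitals on the matches of 8 or 9 letters and of 2 units, overlapping ones joined.
Dnajb6: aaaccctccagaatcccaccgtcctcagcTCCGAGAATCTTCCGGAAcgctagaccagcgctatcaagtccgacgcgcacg
Dnaja1: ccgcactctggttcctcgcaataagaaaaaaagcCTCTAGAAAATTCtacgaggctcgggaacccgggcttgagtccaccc
Dnaja4: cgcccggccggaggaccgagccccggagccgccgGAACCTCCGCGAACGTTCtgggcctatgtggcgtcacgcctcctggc
Dnajb4: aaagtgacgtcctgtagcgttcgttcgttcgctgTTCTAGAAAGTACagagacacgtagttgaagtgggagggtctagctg

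The Dnajb6 stretch is chr5:29735818-29735898 and ends at the upstream of its annotated starts. That of Dnaja1 is chr4:40722305-40722385, upstream of its first start, and that of Dnaja4 is chr9:54699425-54699505, between its annotated starts. All 3 are on the plus strand. The Dnajb4 stretch, chr3:152193813-152193893 on the minus strand, spans the downstream of its annotated starts, inside the gene.

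The 17 wild type summits within 200 bp of these matches lay 0 to 68 bp from the centre of the gene's best match, with a median of 11 bp, and 16 of them within 40 bp. At Dnajb4 the 4 summits lay 1 to 14 bp away, at Dnaja4 2 to 16 bp, at Dnaja1 2 to 35 bp over 6 lists, and at Dnajb6 0 to 68 bp over 3 lists. The distances are within the width of the peaks, the narrowest of which spans 575 bp at these 4 genes. Dnaja4 had more than 1 match of 8 letters, and the one nearest to a summit was taken. The 17 summits are repeated views of the same regions by antibody and time, and those farther than 200 bp were left out by rule.

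**Figure D1:**
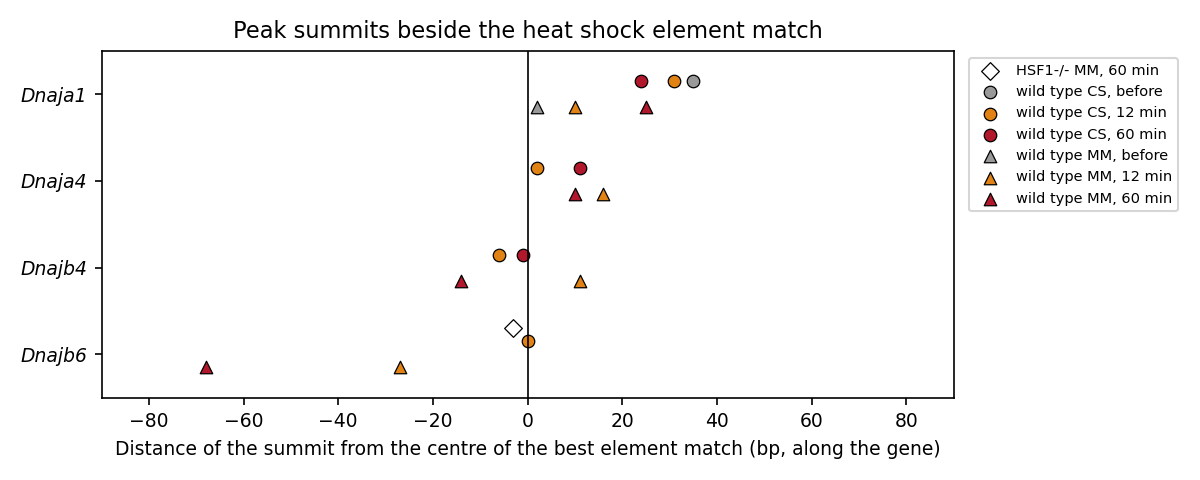
Distance in bp, along the gene, from the centre of the best element match to the summit of each CS or MM peak within 200 bp of it, for the 4 genes with 8 or 9 letters matched. Of the 17 wild type summits (filled), 16 lie within 40 bp of the match, and the open diamond is a peak of 5 tags in HSF1-/- cells, 3 bp from the match at Dnajb6.

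The other 3 bound genes had no match of 8 letters in their windows, with 7 letters at best for Dnajb2 and 6 for Dnajb1 and Dnajb5. A match of 6 letters is found in 95.3% of all windows and one of 7 letters in 47.0%, so neither sets a promoter apart. The windows of Dnajb1 and Dnajb5 did not reach the summits, which lay at least 9 and 105 bp outside them, and the same holds for the upstream region of Dnajb4, at least 641 bp outside. Dnajb2 is the bound gene whose summits were covered and whose window still held no match of 8 letters, and 62 bases around its 12 min CS summit (chr1:75236452-75236513, plus strand) are shown for that reason. The unbound Dnaja2 is shown for contrast by the 81 bases up to and including its annotated start (chr8:85555361-85555441, minus strand), with 6 letters at best in its whole window.
Dnajb2: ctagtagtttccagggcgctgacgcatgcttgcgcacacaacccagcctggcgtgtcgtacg
Dnaja2: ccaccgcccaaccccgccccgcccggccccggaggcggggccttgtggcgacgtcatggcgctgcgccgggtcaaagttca

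Over the whole table, 150 promoter windows held a 12 min CS summit of wild type cells. Of these, 61.3% had a match of 8 letters or more, against 6.97% of the 32701 windows without such a summit. The shares for all 9 letters were 18.0% and 0.523%. Windows of 1 gene often overlap and are not independent, and a match is a description of the letters, not proof of a bound site.

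Values of the class A genes come next. In MACS, the authors' peak caller, each CS or MM peak carries the number of tags inside it, and tags are given with the rank of the peak by tags within its own list. Libraries differed in depth (5.18 to 15.6 M tags after filtering in HSF1-/- cells and 14.0 to 26.3 M in wild type cells), in control and in fragment length, so tags of different lists are printed side by side but are not on 1 scale, and a difference between them is not read as a change.

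Dnaja1 (chromosome 4, 40722468 to 40734965) encodes a farnesylated class A protein of the cytosol and had the peak with the most tags of the 9 before heat shock. In wild type cells its peak held 199 CS and 135 MM tags before heat shock, 902 and 664 at 12 min, and 980 and 795 at 60 min. These were ranks 5 of 180 and 6 of 449, then 6 of 1781 and 7 of 1927, then 11 of 4773 and 7 of 4614. The 6 summits lay within 33 bp of each other, 88 to 121 bp upstream of the first annotated start. The end of Aptx, a neighbouring gene whose product repairs DNA ends, was 680 to 713 bp from the same summits, so the region lies between both genes. The peak was 882, 1697 and 2732 bp wide in CS at 0, 12 and 60 min, and 845, 1669 and 1595 bp wide in MM. The median widths of the whole CS lists (400, 778 and 924 bp) and the CS fragment lengths (45, 128 and 161 bp) were also larger at each later time, and their part in these widths was not tested. By fold enrichment over background it ranked lower, at 304 of 1781 at 12 min in CS with 49.7-fold.

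Dnaja4 (chromosome 9, 54698848 to 54716317), another class A gene, had no wild type peak before heat shock. It had 283 CS and 184 MM tags at 12 min, ranks 97 and 83, and 505 and 446 tags at 60 min, ranks 69 and 34. The 4 summits fell within 14 bp, 78 to 92 bp before the downstream of its annotated starts, and no other protein-coding gene was within 10 kb. Its fold enrichment at 60 min, 104-fold in CS and 102-fold in MM, was the highest of the 9 genes in both lists.

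Dnaja2 (chromosome 8, 85537633 to 85555361), the other class A gene, had no wild type peak in its window. The nearest wild type peak of CS or MM was a CS peak of 42 tags at 60 min, 19.8 kb beyond the gene, and the next was 511 kb away. In HSF1-/- cells Dnaja2 had a CS peak of 7 tags before heat shock and 2 CS peaks of 5 tags each at 60 min.

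**Figure D2:**
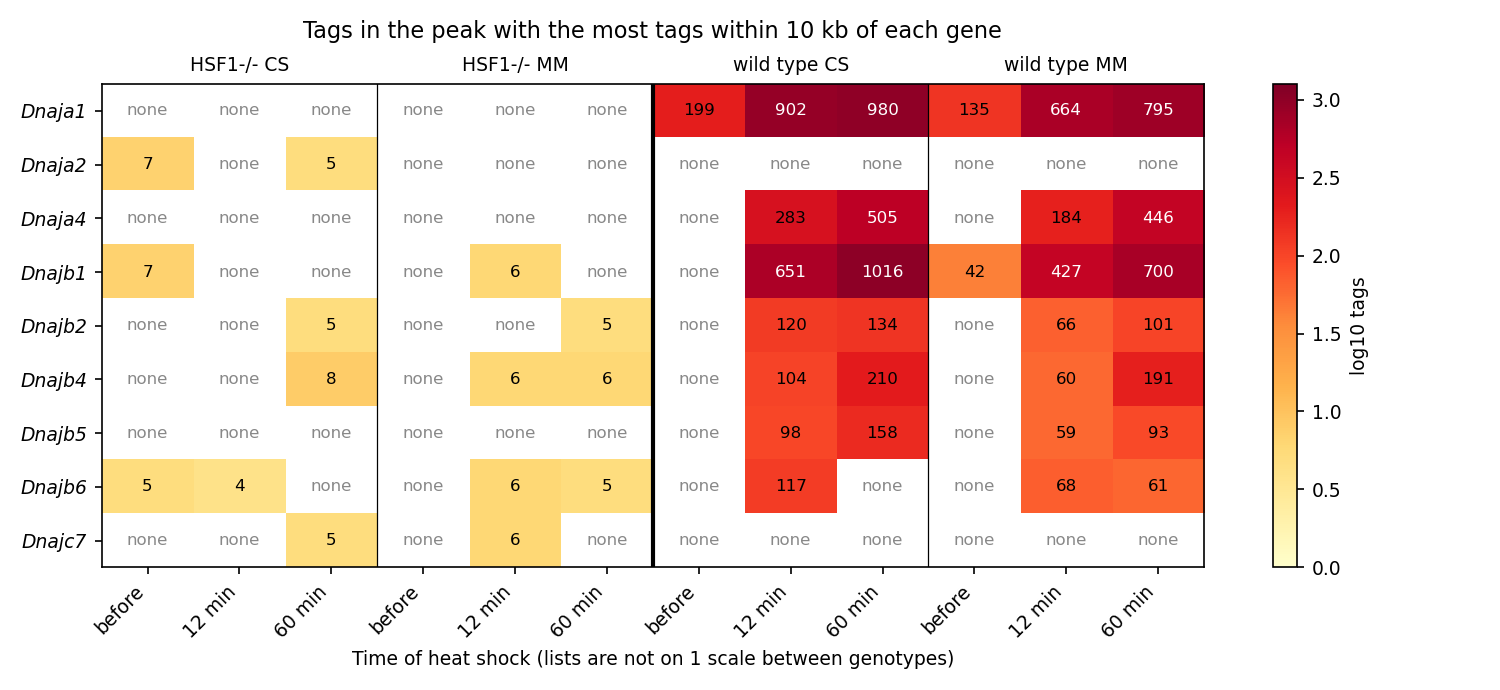
Tags in the peak with the most tags inside each gene or within 10 kb of it, by genotype, antibody and time, with colour on a log10 scale and "none" where no peak was listed. Entries for HSF1-/- cells are 4 to 8 tags, while those of wild type cells are 42 to 1016 tags. The 60 min CS entry of Dnajb2 (134 tags) is a peak 4255 bp upstream of the gene.

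The 5 class B genes all had a shared region at 12 min. Dnajb1 (chromosome 8, 83608175 to 83612653) encodes the classical heat-inducible Hsp40. In wild type cells the CS list had no Dnajb1 peak before heat shock, while the MM list had 2, of 42 and 37 tags, ranks 48 and 61 of 449. By fold enrichment these 2 ranked 438 and 325 of 449, and each had a deposited false discovery rate of 91.8% or more. At 12 min the gene had 651 CS and 427 MM tags, ranks 9 and 13, and at 60 min 1016 and 700 tags, ranks 10 and 11. Those 4 summits and the first of the early MM peaks lay within 20 bp of each other, 58 to 78 bp downstream of the annotated start. The second early MM peak was 159 bp downstream of the other annotated start, inside the span that the later peaks covered. The 60 min CS peak was 5178 bp wide and reached over most of the gene, which is 4.48 kb long, and the MM peak of that time was 1624 bp wide.

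Dnajb2 (chromosome 1, 75236395 to 75245692) encodes a J-domain protein known from neurons that binds ubiquitin chains. At its 5′ end it had 120 CS and 66 MM tags at 12 min, ranks 416 and 442, and 131 and 101 tags at 60 min, ranks 1048 and 655. The 4 summits were 39 to 109 bp downstream of an annotated start. At 60 min 2 further shared regions appeared in its window. The first, with 134 CS and 54 MM tags, lay 34 to 47 bp from an end of A630095N17Rik, and the second, with 43 and 42 tags, lay inside Ptprn, so both were nearer to a neighbour than to Dnajb2. The CS peak of the second was at rank 3481 of 4773 with a deposited false discovery rate of 20.2%, and its MM peak at rank 1930 of 4614 with 0.43%.

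Dnajb4 (chromosome 3, 152181580 to 152210432), which encodes a class B protein closely related to Dnajb1, had 2 regions at 12 and 60 min. The region at the start inside the gene had 104 CS and 60 MM tags at 12 min and 125 and 65 at 60 min, with summits between 22 bp upstream and 3 bp downstream of that start. The upstream region had 103 and 40 tags at 12 min and 210 and 191 at 60 min, 891 to 931 bp before the upstream of its annotated starts. It lies inside Fubp1, which encodes a DNA-binding regulator of Myc. Measured to gene ends, its summits were 552 to 592 bp from Fubp1 and 542 to 582 bp from the 5′ end of Dnajb4, which lies upstream of that start. In rank by tags, the internal peak was ahead of the upstream one at 12 min (504 and 513 in CS, 509 and 876 in MM) and behind it at 60 min (1102 and 536 in CS, 1114 and 230 in MM). In fold enrichment the internal peak was ahead of the upstream one in CS at 12 min (55.3-fold and 19.5-fold) and at 60 min (74.4-fold and 47.6-fold), and in MM at 12 min (27.2-fold and 13.5-fold). In MM at 60 min it was behind (36.3-fold and 51.9-fold).

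Dnajb5 (chromosome 4, 42949867 to 42959425), a further close relative of Dnajb1, had 98 CS and 59 MM tags at 12 min, ranks 543 and 523, and 158 and 93 tags at 60 min, ranks 812 and 714. Its summits, 355 to 408 bp upstream of the first start, were the farthest from a start of any of the main regions except the upstream one of Dnajb4. The next gene, Phf24, ended 4707 to 4760 bp away.

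Dnajb6 (chromosome 5, 29735898 to 29786478) encodes a class B protein known for keeping polyglutamine proteins from aggregating. It had 117 CS and 68 MM tags at 12 min, ranks 432 and 425. At 60 min it had 61 tags in MM, rank 1199, and no peak in CS. By fold enrichment the Dnajb6 peaks were the weakest of the 7 bound genes in every wild type list that held one, at 17.9-fold in CS and 8.33-fold in MM at 12 min and 10.4-fold in MM at 60 min. Dnajb6, with all 9 letters in a searched window, had the lowest fold enrichment and was missing from the 60 min CS list. By tags it was not the lowest at 12 min. Dnajb4 (104) and Dnajb5 (98) had fewer in CS, and Dnajb2 (66), Dnajb4 (60) and Dnajb5 (59) in MM. At 60 min in MM its 61 tags were the fewest among the strongest peaks of the 7 genes. The summits of Dnajb1 and Dnajb5 lay outside the searched windows, so other complete elements may have been missed.

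**Figure D3:**
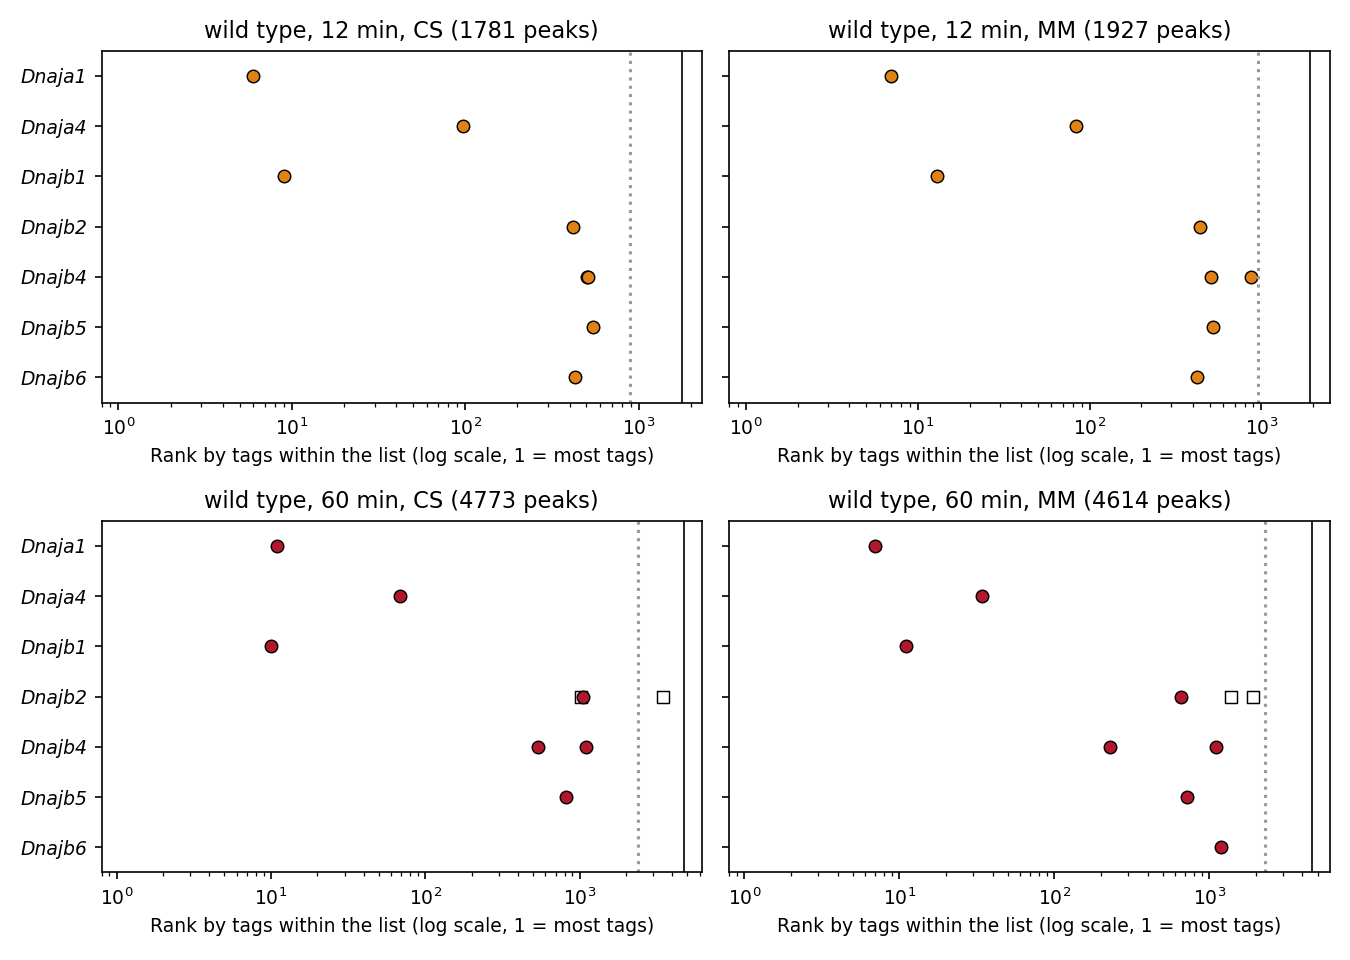
Rank by tags (log axis, 1 has the most tags) of each CS and MM peak of wild type cells at 12 and 60 min at the bound genes within its own list. Filled circles have their summit within 1 kb of an annotated start and open squares do not, the dotted line is the middle of the list and the solid line its end. Dnaja1 and Dnajb1 are at ranks 6 to 13 in all 4 lists and Dnaja4 at 34 to 97, while the other 4 genes are at rank 230 or beyond. Ranks are read within a panel, since lists differ in length.

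Set side by side, 2 of 3 class A genes and 5 of 5 class B genes had a shared region at 12 min, 2 of 3 and 4 of 5 at 60 min, and 1 of 3 and 0 of 5 before heat shock. The shares of all protein-coding genes were 5.33%, 11.2% and 0.527% at those times. In CS tags at 12 min the class A genes had 902 (Dnaja1) and 283 (Dnaja4), and the strongest peak of each class B gene had 651 (Dnajb1), 120 (Dnajb2), 117 (Dnajb6), 104 (Dnajb4) and 98 (Dnajb5). The classes overlap in these values, with Dnajb1 between both bound class A genes. The 4 other class B genes were all below them, yet above the median of the list (67 tags). With 3 and 5 genes and 1 list per condition, the classes were not tested against each other.

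Dnajc7 (chromosome 11, 100582818 to 100620292), a class C gene whose product holds tetratricopeptide repeats and binds both Hsp70 and Hsp90, had no wild type peak of CS or MM within 10 kb. The nearest was an MM peak of 22 tags at 60 min, 160 kb away. In HSF1-/- cells it had an MM peak of 6 tags at 12 min, 505 bp from a start and where the gene overlaps Nkiras2, and a CS peak of 5 tags at 60 min.

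In HSF1-/- cells no gene of the 9 had a shared region within 1 kb of a gene end at 0, 12 or 60 min, beside 0.139%, 0.12% and 0.166% of all protein-coding genes. In wild type cells all 7 genes bound at 12 min and all 6 at 60 min also had a shared region within 1 kb of a gene end, beside 1.52% and 2.58% of all protein-coding genes, as did Dnaja1 before heat shock, beside 0.194%. The bound genes ranged from 4.48 kb (Dnajb1) to 50.6 kb (Dnajb6) in length, and the unbound Dnaja2 and Dnajc7 were 17.7 and 37.5 kb long. Including 10 kb on each side, the median window was 37.5 kb for the 9 genes and 37.3 kb for all protein-coding genes. Of the wild type CS and MM peaks, the farthest one outside a gene but still counted was 4268 bp from Dnajb2, and the nearest one not counted was 14.3 kb from Dnajb1, with 94 tags in CS at 60 min.

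Of the 39 wild type CS and MM peaks at the 9 genes, 35 had a summit within 1 kb of a start. At 12 min this was 8 of 8 in CS and 8 of 8 in MM, beside 25.4% (22.9% to 27.9%, exact binomial 95% interval) of the 1207 CS peaks and 28.8% (26.3% to 31.3%) of the 1332 MM peaks inside any protein-coding gene or within 10 kb of one. At 60 min it was 7 of 9 in CS and 8 of 10 in MM, beside 16.7% (15.4% to 18.0%) of 3112 and 24.6% (23.2% to 26.1%) of 3286 such peaks. Several of the peaks at the 9 genes are the same region seen by both antibodies or at both times, and the shares were not tested against each other. The 4 exceptions were the 60 min peaks beside Dnajb2. Distances were measured to the starts in the RefSeq window table, which is not complete, and the intervals cover counting error only.

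**Figure D4:**
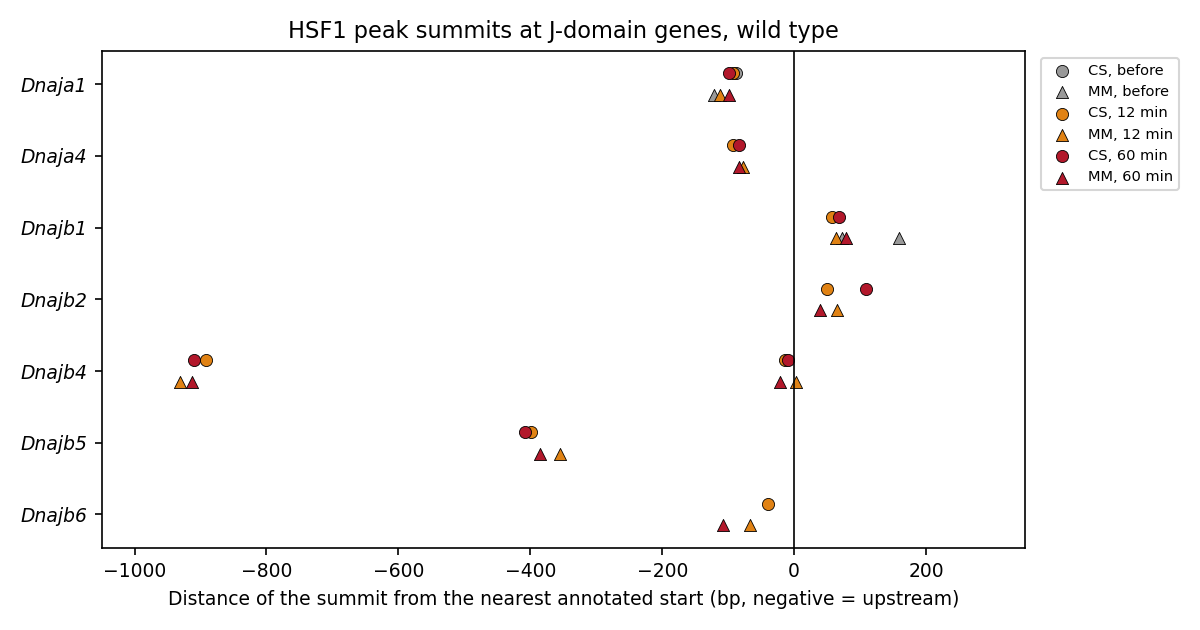
Position of the 35 wild type CS and MM summits that lie within 1 kb of an annotated start, in bp from the nearest start (negative is upstream), by gene, antibody and time. At each gene the summits of both antibodies and of all times cluster, for example within 33 bp at Dnaja1 and within 14 bp at Dnaja4. Dnajb4 has separate clusters at an internal start and 891 to 931 bp upstream of its 5′ start.

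Peaks at the 9 genes in the lists of HSF1-/- cells held fewer tags and were narrower. The 18 HSF1-/- peaks at the 9 genes held 4 to 8 tags and were 66 to 136 bp wide, whereas the 39 wild type peaks held 37 to 1016 tags and were 298 to 5178 bp wide. The median peak of an HSF1-/- list held 4 to 7 tags, and that of a wild type CS or MM list 15 to 67. The HSF1-/- peaks at the 9 genes ranked within the top 13.8% to 44.5% of their lists by tags. Since tied peaks share the better rank, those with the median tags of their list stand at 27.9% to 44.5%. HSF1-/- libraries were called without a control and wild type ones against IgG, so neither counts of peaks nor tags are on 1 scale. Fragment lengths were 33 to 40 bp in HSF1-/- lists and 40 to 161 bp in wild type CS and MM lists. Their part in the widths was not tested. With a peak of either antibody counted, 3, 4 and 5 of the 9 genes had one in HSF1-/- cells at 0, 12 and 60 min of heat shock, beside 26.4%, 26.5% and 24.2% of all protein-coding genes. In wild type cells 2, 7 and 7 of the 9 did, beside 2.2%, 8.26% and 17.9%. For single antibodies, CS gave 3, 1 and 4 genes in HSF1-/- cells (beside 21.6%, 15.9% and 18.1%) and 1, 7 and 6 in wild type cells (beside 0.707%, 6.41% and 13.9%). MM gave 0, 4 and 3 genes in HSF1-/- cells (beside 9.92%, 16.8% and 11.4%) and 2, 7 and 7 in wild type cells (beside 2.03%, 7.23% and 15.4%).

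The shared region of HSF1-/- cells was at Dnajb4 at 60 min, with 8 CS and 6 MM tags and summits 6535 to 6537 bp beyond the 3′ end of the gene. No wild type peak overlapped it. Of the 18 HSF1-/- peaks, 15 overlapped no wild type peak of any time at the same gene, and 3 did, each from 1 MM list. At Dnajb1 the 12 min MM peak of HSF1-/- cells held 6 tags, with its summit 101 bp from that of the wild type MM peak of 427 tags. At Dnajb2 the 60 min MM peak of HSF1-/- cells held 5 tags, 74 bp from the wild type MM summit with 101 tags and 4 bp from the CS summit with 131. At Dnajb6 the 60 min MM peak of HSF1-/- cells held 5 tags and its summit was 65 bp from that of the wild type MM peak of 61 tags. That summit is 3 bp from the centre of the complete element printed above. Over the whole lists, 1.19% of the 4614 wild type MM peaks at 60 min overlapped an HSF1-/- MM peak of that time, and 1.97% of the 1927 at 12 min. These are shares of wild type peaks, unlike the 3 of 18 HSF1-/- peaks above. By that measure, Dnajb2 and Dnajb6 each had an overlapped peak among the 10 wild type MM peaks at 60 min. Dnajb1 had one among the 8 at 12 min. The difference from the whole lists was not tested.

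SRF was mapped in the same wild type cells as a factor known for genes of the cytoskeleton and immediate early genes. No SRF peak lay within 10 kb of any of the 9 genes at any of the 3 times, beside 0.194%, 0.254% and 0.0879% of all protein-coding genes. The nearest was 998 kb from Dnajb5 at 12 min. SRF lists were short (64, 68 and 18 peaks) and came from 0.751 to 1.55 M tags, against 14.0 to 26.3 M tags for CS and MM in the same cells.

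The rest of the family and the partners of J-domain proteins were read by the same rule. Of 39 other J-domain genes, 1, 2 and 3 had a shared wild type region at 0, 12 and 60 min, beside 0.527%, 5.33% and 11.2% of all protein-coding genes, so the later counts were near or below the background. They were Dnajb7 at all 3 times, Dnajc11 at 12 and 60 min, and Dnajc5 at 60 min. None of these 39 had a shared wild type region within 1 kb of a gene end, which 0.194%, 1.52% and 2.58% of all protein-coding genes had. The region counted for Dnajb7, with 439 CS tags before heat shock and 944 at 12 min, was 7243 to 7257 bp from that gene and 137 to 151 bp from St13, an Hsp70 cochaperone. The region of Dnajc11, which encodes a mitochondrial protein, was inside the gene, 9522 to 9545 bp from its nearest end, and at 60 min a second one of 74 CS and 35 MM tags lay outside, 4841 bp from the gene. Dnajb8 was the listed gene with a shared region in HSF1-/- cells, of 5 to 13 tags in either antibody, at all 3 times.

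Among the Hsp70 genes themselves, 1, 4 and 4 of 6 had a shared wild type region at the 3 times, beside the same 0.527%, 5.33% and 11.2%. Hspa8, the constitutive Hsp70, had one at each time, and Hspa1a, Hspa1b and Hspa1l at 12 and 60 min. Hspa1a and Hspa1l are neighbours, and 1 region of 448 CS tags at 12 min, 138 bp from Hspa1a and 409 bp from Hspa1l, was counted for both. Among the nucleotide exchange factors, which release ADP from Hsp70 after J-domain proteins have started its cycle, 1, 6 and 7 of 9 did, read against the same shares of all genes. Hsph1 was found at all times, Hspa4, Hspa4l, Bag2, Bag3 and Hspbp1 joined it at 12 min, and Bag5, with a region 8449 bp from the gene, at 60 min. Hsph1 had 986 CS tags at 12 min (rank 3), close above Dnaja1 (902, rank 6), and Bag3 had 349 (rank 57), between Dnajb1 (651, rank 9) and Dnaja4 (283, rank 97). St13 and Stip1, which encode further Hsp70 cochaperones, were found at all 3 times and Stub1, of the same list of 3, at none.

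**Figure D5:**
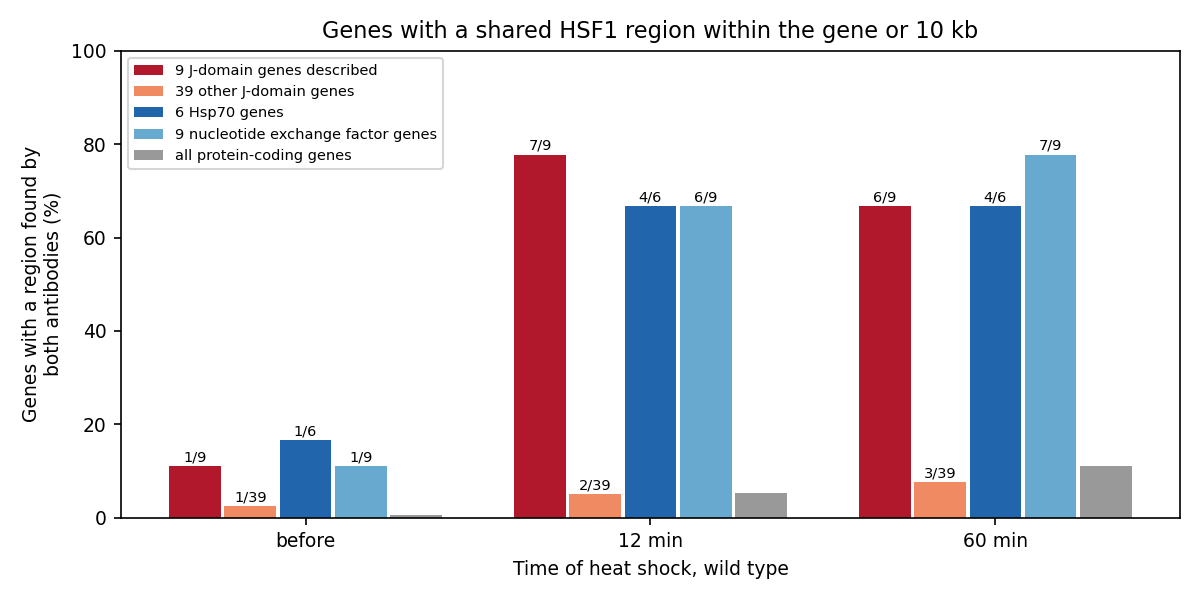
Percent of genes with a shared CS and MM region within the gene or 10 kb in wild type cells, by time, for the 9 J-domain genes described, 39 other J-domain genes, 6 Hsp70 genes, 9 nucleotide exchange factor genes and all 21627 protein-coding genes (counts above the bars). At 12 min the bars stand at 7 of 9, 2 of 39, 4 of 6 and 6 of 9 genes, and 5.33% of all genes.

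These calls rest on the authors' p cutoff of 1e-04. At 12 min the Dnaja1, Dnajb1 and Dnaja4 CS peaks carry a deposited false discovery rate (FDR) of 16.7%, 12.5% and 5.38%. These are above those of the weaker Dnajb2 (2.21%) and Dnajb5 (2.78%). The 12 min MM peaks of Dnaja1, Dnajb1 and Dnaja4 carry an FDR of 0%. Dnajb6 at 12 min is above 5% in MM (7.94%) and below it in CS (2.86%). Requiring an FDR of 5% or less in both antibodies leaves 3 of 9 genes at 12 min (Dnajb2, Dnajb4 and Dnajb5), 6 at 60 min and none before heat shock, beside 3.69%, 9.77% and 0% of all protein-coding genes. The Dnaja1 peaks before heat shock carry an FDR of 92.3% in CS and 36.4% in MM. Since no gene at all passed before heat shock, the loss of Dnaja1 there is not particular to it. Requiring p of 1e-10 or less leaves 5 at 12 min (all bound genes but Dnajb5 and Dnajb6), beside 2.59%.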

How the data were processed

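The authors' ChIP-seq peak lists were used as deposited. Per the file headers, CS and MM peaks come from MACS 1.4.2 (p cutoff 1e-04) with at most 1 tag kept per position. Wild type libraries, in files named as a merge of 2 replicates, had the time-matched IgG library as control, and HSF1-/- libraries had none. SRF peaks come from MACS 2.0.9, also against IgG. The genome was mm10, per the submitters' processing notes. No aligner is named in what was used here.

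Each deposited CS or MM peak has a tag count, a score (log10 of p times 10, with the sign turned), a fold enrichment (a ratio) and, in wild type lists, an FDR in percent. Each deposited SRF peak has a pileup (a signal), a fold enrichment, and both p-value and q-value as −log10. These are the authors' values and describe or rank peaks within a list only. Tied peaks share the better rank.

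Gene positions and promoter windows came from the RefSeq tables for GRCm38.p6. The 21627 protein-coding genes of chromosomes 1 to 19 and X gave the background. A MACS 1.4.2 summit was taken as the peak start plus its offset less 1. Scripts ran in Python 3.11.15 with pandas 2.3.3, and calls were tested on simulated peaks and elements. A further J-domain gene was left out of the list of other family members and is not reported here. All 9 genes, related genes of fixed lists with a shared region, and neighbours nearer to a summit were named. Members and lists were chosen with earlier results of these data known. The share at starts among peaks near genes was added after seeing the data. No test was run, since there was 1 list per condition.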

Additional observations from a re-analysis of the deposited data

How the results depend on the processing

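No paired analysis was possible because there was 1 peak list for each genotype, time and antibody. Of 77 alternatives over 16 counts, 63 left the count within 1.5 times. Some of the 63 could not move, since a stricter setting must leave a count of 0 at 0. Class counts also repeat those of the 9 genes, so the total is not a measure of robustness. For wild type cells, MM alone gave 2 of 9 genes before heat shock (Dnaja1 and Dnajb1) in place of 1, an FDR of 5% or less gave 0 before heat shock (0% of all genes passed) and 3 in place of 7 at 12 min (3.69% of all genes passed), and p of 1e-10 or less gave 3 in place of 5 class B genes at 12 min (2.59% of all genes passed). For HSF1-/- cells, CS alone gave 3, 1 and 4 genes and MM alone 4 at 12 min and 3 at 60 min, in place of 0, 0 and 1 shared. The shared region at Dnajb4 at 60 min was lost (0 genes) within 5 kb, within 1 kb of a gene end and at p of 1e-10 or less. Without wild type peaks over HSF1-/- peaks of the same time, 6 genes were left at 12 min (Dnajb1 was lost). With 50% of both peaks required to overlap, 5 were left at 60 min, where the CS peak of Dnajb1 was far wider than its MM peak. Matches of all 9 letters of the heat shock element were in 1 promoter, and both 8 letters and 2 units, chosen after seeing the data, gave 4. Tags of 37 or more carry the wild type calls, and 4 to 8 those of HSF1-/- cells.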
